A study of Mus musculus with 4 samples.

Results

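B cells of the tumour-bearing mouse lung were taken from single-cell RNA sequencing of lung leukocytes. They were the barcodes that carried B cell transcripts and few or no transcripts of the macrophage genes Lyz2 and C1q. A barcode was a member when it held at least 1 UMI of Cd79a, at least 3 UMIs of Cd79a, Cd79b and Ms4a1 together, no UMI of Cd3e, Cd3d, Cd3g or Siglech, at most 5 UMIs of Lyz2 and at most 2 UMIs of the C1q chains together. Each UMI, a random tag added before amplification, stands for 1 molecule of RNA. By this rule 766 of 9256 kept barcodes, 8.28%, were members. The members were chosen by the UMIs of these genes, so the levels of Cd79a, Cd79b, Ms4a1, Cd3, Siglech, Lyz2 and C1q transcripts in them are a description and support nothing.

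B cells carry a surface antibody, the B cell receptor, whose signalling chains Cd79a and Cd79b pass its signal into the cell. A mature B cell that has not met antigen usually displays IgM and IgD of the same specificity, made by splicing 1 heavy chain transcript to either constant region, and pairs its heavy chain with either a kappa or a lambda light chain. After activation, some B cells switch to IgG, IgA or IgE, and some become plasma cells that secrete antibody in bulk. B cells also present peptides on MHC class II and home through lymphoid tissue and lung with the help of chemokine and lipid receptors.

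The libraries came from Balb/c mice injected intravenously with 4T1 cells, which derive from a mammary tumour of that strain and colonise the lung. In 2 libraries labelled PD-L1 KO the injected 4T1 cells lacked PD-L1, which binds and triggers the inhibitory receptor PD-1, and in 2 libraries labelled WT they were wild type. In all 4 libraries the host mice were Balb/c with no altered gene named in the labels, so the knockout concerned the injected tumour cells and not the B cells. Lungs were taken on day 14 after injection, digested with collagenase and enriched for CD45, the surface marker of leukocytes, on magnetic beads. The file names gave each group the other group's condition, and every direction below rests on the sample labels. Nothing states that each library is a mouse of its own, so the p-values reflect how far these libraries varied, which may be technical.

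The libraries held 2370 to 2736 barcodes and 17618220 to 19635983 UMIs. The B cells numbered 213 and 113 in the PD-L1 KO libraries and 229 and 211 in the WT libraries. Their median depth was 2951 and 3322 UMIs per cell in PD-L1 KO and 3057 and 2965 in WT, against 5845 and 5893 in PD-L1 KO and 4838 and 4991 in WT for all other kept barcodes. No B cell barcode was shared by any pair of libraries, and at most 3 barcodes of any kind were. PD-L1 KO library 2 stood apart: the limits on Lyz2 and C1q removed 78 barcodes there, 40.8% of those that met the other conditions, against 66 (23.7%) in PD-L1 KO library 1 and 53 (18.8%) and 64 (23.3%) in the WT libraries.

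The first question was whether B cells made up a different share of the lung leukocytes. B cells made up 9.38% of kept barcodes in PD-L1 KO library 1 (95% exact Clopper-Pearson interval 8.21 to 10.7) and 5.48% in PD-L1 KO library 2 (4.54 to 6.55). They made up 9.13% (8.03 to 10.3) and 8.74% (7.64 to 9.93) in the WT libraries. The intervals cover counting error only. PD-L1 KO library 2 was thus the lowest and PD-L1 KO library 1 the highest, and the groups overlapped. The mean was 7.43% ± 2.76 in PD-L1 KO and 8.93% ± 0.276 in WT (SD, n = 2 each), a difference of -1.50 percentage points in a two-sided exact permutation test (p = 1, where the smallest p that 2 against 2 libraries allow is 0.333). Without PD-L1 KO library 2 the difference turned to 0.45 points, and without PD-L1 KO library 1 it was -3.45. With no limit on Lyz2 and C1q, the shares were 12.3% and 9.26% in PD-L1 KO and 11.2% and 11.4% in WT.

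**Figure D1:**
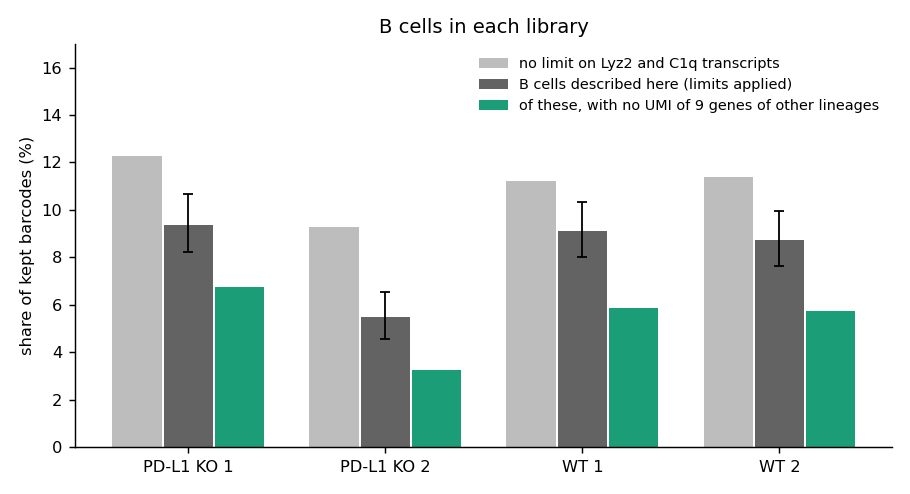
Share of kept barcodes (%, vertical axis) in the PD-L1 KO and WT libraries for barcodes that met the B cell conditions with no limit on Lyz2 and C1q, for the B cells described here, and for those with no UMI of 9 genes of other lineages. Error bars on the B cells described here are 95% exact intervals of the share in 1 library. The B cells make up 9.38% and 5.48% in PD-L1 KO, and 9.13% and 8.74% in WT, with the lowest share in PD-L1 KO library 2.

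The label was checked against genes that the rule did not use. Transcripts of Fcmr, the receptor for IgM, stood at 768 and 586 CPM in the B cells of PD-L1 KO libraries and at 718 and 594 CPM in those of WT libraries, where CPM scales the UMIs summed over a class in a library to a common total of 1e6. In T cells, taken as 1221 barcodes with at least 2 Cd3 UMIs, no Cd79a, Cd79b or Ms4a1 UMI and the same limits on Lyz2 and C1q, Fcmr reached 1.21 CPM at most. Summed over 12 further B lineage genes, among them Cd22 and the transcription factors Pax5 and Ebf1, the level was 4867 to 5886 CPM in B cells and 266 to 293 CPM in T cells over the 4 libraries. Ranked by the lowest of the 4 library ratios to all other kept barcodes, the leading genes among those the rule did not use were Iglc1, Fcmr, Vpreb3, Ly6d and Bank1. Ebf1, a factor that sets B lineage identity, had a UMI in 97.1% of the B cells and in 1.39% of the T cells, at medians of 3015 and 4214 UMIs per cell. With every cell thinned to 1000 UMIs, which left out 3 T cells, the shares were 73.4% and 0.246%.

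Near the limits the members looked as follows. Lyz2, a lysozyme of macrophages and neutrophils, had no UMI in 596 of the 766 B cells. The 15 members with 4 or 5 Lyz2 UMIs held a median of 11 UMIs of the 3 B cell markers, and the 10 barcodes just outside, with 6 or 7 Lyz2 UMIs, held 10.5. The 153 barcodes outside with over 7 Lyz2 UMIs held a median of 95 Lyz2 UMIs and 11670 UMIs in all. Apoe, a lipid carrier that the rule did not limit and that macrophages make in bulk, had a UMI in 46.1% of the B cells and in 12.4% of the T cells, or 27.4% and 3.45% after thinning. The 12 macrophage markers, Lyz2, the C1q chains and Apoe among them, summed to 500 to 750 CPM in B cells and 177 to 211 CPM in T cells over the libraries.

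Transcripts of lineages that the rule did not limit were present in some members. Of the 766 B cells, 157 held at least 5 UMIs of the markers of neutrophils, natural killer cells, endothelium, fibroblasts, platelets and red cells, or of T cell receptor constant chains. Neutrophil markers were the most frequent, in 22 and 20 members of the PD-L1 KO libraries and 37 and 31 of the WT libraries. Natural killer markers were in 12 and 7 members of PD-L1 KO and in 11 and 12 of WT. Endothelial markers were in 2 and 5 members of PD-L1 KO and in 5 and 7 of WT, and these 19 barcodes had a median of 30972 UMIs. The 157 barcodes held a median of 5224 UMIs against 2759 in the other 609, and they held 39.5% of the UMIs of the B cells over the genes with at least 10. No doublet caller was used here, so barcodes that hold a B cell and another cell remain among the members. A stricter set of 505 B cells had no UMI of any of 9 genes of other lineages. The 9 were S100a8, S100a9, Trac, Trbc1, Trbc2, Nkg7, Cdh5, Col1a2 and Epcam. The set held 153 and 67 cells in PD-L1 KO and 147 and 138 in WT. Its median depth was 2778 and 2570 UMIs per cell in PD-L1 KO and 2633 and 2712.5 in WT. Members outside the set were deeper, at medians of 4074.5 and 4490.5 UMIs in PD-L1 KO and 4719.5 and 4700 in WT. In the stricter set the neutrophil list summed to 12.3 to 29.4 CPM over the libraries, against 7443 to 11335 CPM over all members. Its S100a8 and S100a9 were at 0 by definition of the set. Macrophage markers were not reduced in the stricter set, at 447 to 804 CPM against 500 to 750 CPM over all members.

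**Figure D2:**
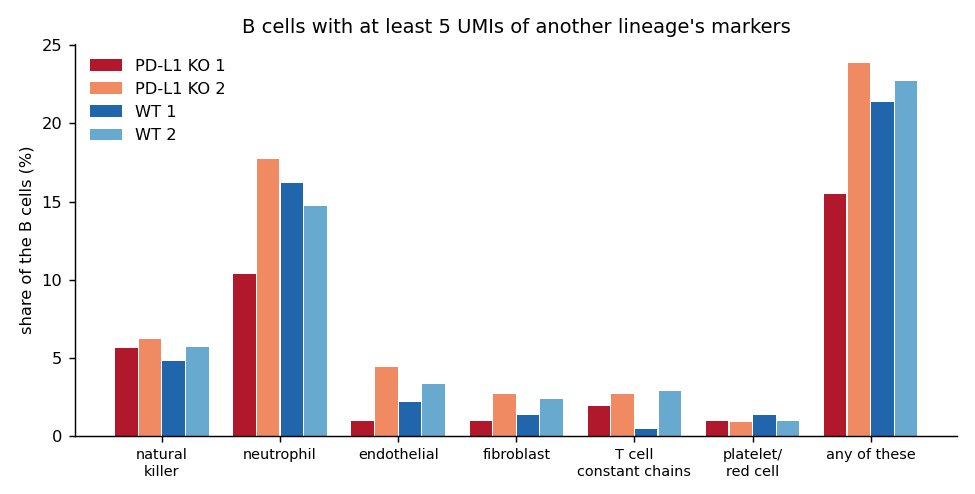
Share of the B cells (%, vertical axis) that held at least 5 UMIs of the markers of another lineage, for each lineage and library. The bars of any lineage stand at 15.5% and 23.9% in PD-L1 KO and at 21.4% and 22.7% in WT, and neutrophil markers are the most frequent in every library.

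Most of the B cells carried the IgM and IgD transcripts of mature unswitched cells. Ighm, the constant region of IgM (chromosome 12, 113418558 to 113422730, minus strand, mm10), and Ighd, that of IgD, both had a UMI in 591 of the B cells (77.2%) and in 4 of the T cells (0.328%). Ighm alone was in 27.4% of T cells, so a single Ighm UMI does not mark a B cell here, while Ighd reached 0.737% of T cells. Both were present in 77.9% and 69.9% of the B cells in PD-L1 KO and in 77.3% and 80.1% in WT. Ighd together with Fcer2a, the low-affinity IgE receptor of follicular B cells, was in 396 B cells (51.7%) and 1 T cell. Cr2, the complement receptor of mature B cells, had a UMI in 36.8% of the B cells and in 0.328% of the T cells.

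Each cell was also given the class with the most UMIs, at 2 or more. IgM led in 690 B cells, IgD in 35, IgG in 3 and IgA in 3, and 35 had no class. IgM led in 92.0% and 88.5% of the B cells of PD-L1 KO libraries and in 90.8% and 88.2% of those of WT libraries. At least 5 UMIs of the IgG, IgA and IgE genes together were in 9 B cells, 1 and 3 in PD-L1 KO and 3 and 2 in WT. Ighe had 0 UMIs in 766 cells, which allows up to 0.392% of cells with an Ighe UMI and sets no limit on cells that express it at lower levels. At least 5 UMIs of the cycling genes Mki67 and Top2a were in 4 B cells (0.522%) and in 55 T cells (4.50%). Cd5, a surface protein of B-1a and T cells, had 5 UMIs in the B cells, 0 and 0 in PD-L1 KO and 2 and 3 in WT. V segments of the antibody genes had 418 UMIs in 247 B cells (32.2%), with 119 V genes seen and no single one in more than 17 cells. The libraries count the 3' ends of transcripts and most B cells held no V UMI, so these counts do not show how varied the B cells were.

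Light chains divided the B cells into 697 that kappa led and 66 that lambda led, with 3 not called. Mouse lambda chains come from a small locus on chromosome 16 with constant genes of their own, Iglc1, Iglc2 and Iglc3. The kit reads the 3' end of transcripts, and the last 60 coding bases of the 3 genes are shown because they lie toward that end and show how alike the genes are there. They were read from the mm10 genome on the minus strand at chr16:19061752-19061811 for Iglc1, chr16:19198536-19198595 for Iglc2 and chr16:19065365-19065424 for Iglc3, with capitals where a base differs from Iglc2.
Iglc1: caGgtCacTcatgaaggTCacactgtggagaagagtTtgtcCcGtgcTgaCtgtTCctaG
Iglc2: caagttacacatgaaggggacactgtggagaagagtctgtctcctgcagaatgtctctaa
Iglc3: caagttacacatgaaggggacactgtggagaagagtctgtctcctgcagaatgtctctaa
Iglc1 differed from Iglc2 at 13 of the 60 bases and Iglc3 at 0. Over the whole transcripts, 94.3% of aligned columns were alike between Iglc2 and Iglc3, against 66.7% between Iglc1 and Iglc2, so counts of Iglc2 and Iglc3 are uncertain. How reads that match both were counted was not tested, and this also bears on their level beside Iglc1.

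Among the lambda-called cells, 37 held more UMIs of Iglc1 and 28 more of Iglc2 and Iglc3 together. They held a median of 27 lambda UMIs and 5 Igkc UMIs per cell. The kappa-called cells held a median of 28 Igkc UMIs and also 5 lambda UMIs, where T cells held a median of 0 of each. Lambda led in 24 and 13 B cells of the PD-L1 KO libraries, 11.3% and 11.5%, and in 18 and 11 of the WT libraries, 7.86% and 5.21%. Both PD-L1 KO libraries were above both WT libraries. The mean was 11.4% ± 0.167 in PD-L1 KO and 6.54% ± 1.87 in WT (SD, n = 2 each), with an exact two-sided permutation p of 0.333, the smallest possible. In the stricter set lambda led in 13.1% and 11.9% of cells in PD-L1 KO and in 5.44% and 3.62% in WT. With cells thinned to 1000 UMIs the shares were 15.5% and 8.85% in PD-L1 KO and 9.17% and 5.69% in WT, and the groups overlapped.

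Few barcodes carried the transcripts of antibody secretion. At least 5 UMIs of Jchain, the joining chain of secreted IgM and IgA, were in 4 of the 766 B cells, 1 and 2 in PD-L1 KO and 1 and 0 in WT. These 4 held 219 to 673 Jchain UMIs each. The PD-L1 KO library 1 cell and the WT library 1 cell held 1289 and 1016 Igha UMIs and 0 of Ighm, and the 2 of PD-L1 KO library 2 held 1109 and 1153 Ighm UMIs. All 4 held at most 1 UMI of Ms4a1, the gene of the CD20 surface protein that plasma cells lose. The 4 cells held 99.3% of the Jchain, 99.0% of the Igha, 36.1% of the Igkc and 18.5% of the Ighm UMIs of all members. A sum over the B cells of a library therefore moves with whether such a cell was captured. Igkc stood at 10436 and 19401 CPM in PD-L1 KO and at 9810 and 6484 CPM in WT with all members, and at 9488 and 8685 CPM in PD-L1 KO and 10057 and 10004 CPM in WT in 503 cells of the stricter set without secreting barcodes.

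To ask how B cells differed between lungs with PD-L1 KO and WT tumours, UMIs were summed over the B cells of each library and tested with edgeR. No gene passed at a Benjamini-Hochberg adjusted p of 0.05: 0 of 8240 genes (0%) were called higher in PD-L1 KO and 0 (0%) lower, with 351 at an unadjusted p under 0.05. DESeq2 called 0 as well, with 68 at an unadjusted p under 0.05. In bulk sums, fewer cells that make a transcript and less of it per cell cannot be told apart. Both PD-L1 KO libraries were above both WT libraries for 13.5% of the genes and below both for 18.2%. On simulated counts for these genes and libraries, the same test recovered 41% of genes changed by a log2 of 1. It recovered 99% of those changed by a log2 of 2, and 6 unchanged genes were called. Changes were made only in genes with higher counts, and every gene was given the same spread between libraries. The rates therefore do not cover low or more variable genes. Real genes differ in spread, so the rates do not say what share the test would recover in the real counts.

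Among the 10 genes with the smallest p on the higher side were Scgb3a1, Iglc1, Ifitm1, Slpi, Sesn1, Ly6c2, Dnajb11, Xcl1 and Rnaset2a, each with an adjusted p of 1. Several of them came from few barcodes. Scgb3a1, a secretoglobin of airway secretory cells, stood at 67.8 and 12.5 CPM in PD-L1 KO and at 0.980 and 1.01 CPM in WT, and 1 cell held 86.8% of its UMIs. Slpi, a protease inhibitor, stood at 91.9 and 473 CPM in PD-L1 KO and at 56.9 and 22.2 CPM in WT. Of its UMIs, 55.5% were in 1 cell. Its log2 difference of 2.82 was 0.52 without the secreting barcodes and 4.62 without the 157 barcodes with markers of other lineages. Xcl1, a chemokine of natural killer and T cells, had 100% of its UMIs, and Ifitm1 99.2%, in the 157 barcodes with markers of other lineages. Over the natural killer list, 7 of 7 tested members had a log2 difference above 0, beside 49.5% of all genes. The median was 0.42, and the summed level was 998 and 575 CPM in PD-L1 KO and 588 and 717 CPM in WT. For the natural killer list, Scgb3a1, Xcl1 and Ifitm1, the part of those barcodes was not tested.

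Sesn1, a stress-responsive regulator of mTORC1 signalling, was spread over 245 B cells. It stood at 136 and 129 CPM in PD-L1 KO and at 58.8 and 86.7 CPM in WT, and the groups did not overlap. The log2 difference was 0.89 (SE 0.22, edgeR adjusted p = 1), and in the 503 cells it was 0.94. Dnajb11, a chaperone of the endoplasmic reticulum, stood at 88.5 and 141 CPM in PD-L1 KO and at 62.7 and 55.4 CPM in WT. Its log2 difference of 0.95 was 0.60 without the secreting barcodes, 0.61 in the 503 cells and 0.58 without PD-L1 KO library 2.

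The 10 genes with the smallest p on the lower side were Ccl6, Pf4, Klf4, Foxf1, Nrgn, Csf1, Plpp1, Clec14a, Hpgd and Palmd. Foxf1, a transcription factor of lung capillary endothelium, stood at 18.4 and 23.2 CPM in PD-L1 KO and at 44.1 and 76.6 CPM in WT, and the 19 endothelial-marker barcodes held 99.3% of its UMIs. Clec14a, an endothelial lectin, stood at 79.3 and 80.3 CPM in PD-L1 KO and at 129 and 153 CPM in WT, with 99.0% of its UMIs there. Pf4, a platelet chemokine, stood at 12.6 and 19.6 CPM in PD-L1 KO and at 47.1 and 123 CPM in WT. Of its UMIs 85.9% were in barcodes with platelet or red cell markers. Pf4 is itself among those markers, so this share was partly set in advance. Over the endothelial list, 0 of 8 tested members had a log2 difference above 0, beside 49.5% of all genes. The median was -0.50, and the summed level was 1055 and 1496 CPM in PD-L1 KO and 1494 and 2151 CPM in WT. In the stricter set of 505 cells, with Cdh5 at 0 by its definition, that level was 129 and 189 CPM in PD-L1 KO and 157 and 147 CPM in WT.

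**Figure D3:**
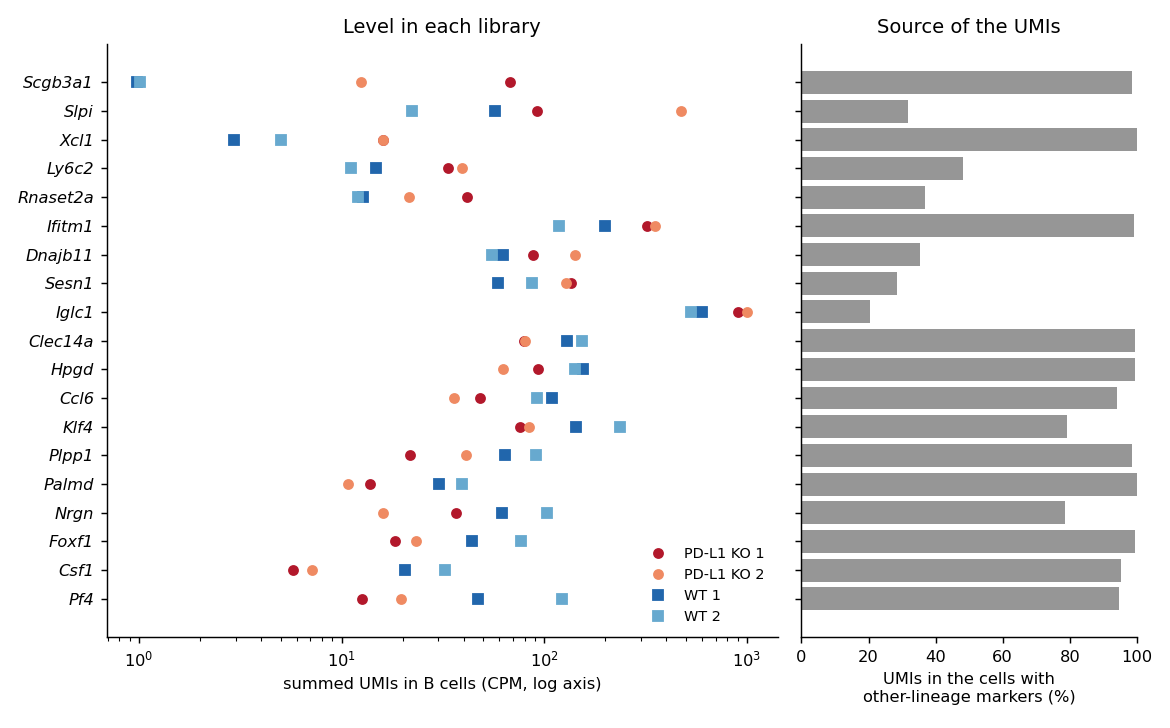
Left, level of 19 named genes in each library (CPM over the B cells, log axis), with PD-L1 KO libraries as circles and WT libraries as squares. Right, percent of each gene's UMIs that lie in the 157 B cells with markers of other lineages. Iglc1 and Sesn1 have 20.5% and 28.6% there, while Foxf1, Clec14a, Hpgd, Palmd and Xcl1 have over 99%.

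In the stricter B cells, the light chain gene Iglc1 rose in PD-L1 KO. Among 5242 genes tested in the 505 cells, 6 (0.114%) were called higher in PD-L1 KO by edgeR and 0 (0%) lower. The 6 were Jchain, Igha, Igkc, Iglc1, Fam46c and Hsp90b1. Jchain was at 1074 and 898 CPM in PD-L1 KO and at 6.36 and 0 CPM in WT, since 2 of the 4 secreting barcodes, both of PD-L1 KO libraries, were in this set. Without those 2 barcodes, 1 of 5204 genes (0.0192%) was called higher and 0 (0%) lower, with 211 at an unadjusted p under 0.05. The 1 gene was Iglc1. This smaller set of 503 cells was chosen after the data had been seen. With all 609 B cells that had under 5 UMIs of every other-lineage list, secreting barcodes kept, 0 of 5833 genes passed, and Iglc1 had a log2 difference of 0.98 (edgeR adjusted p = 0.409). Over the alternatives, the adjusted p of Iglc1 ran from 0.00231 to 1.

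Iglc1 (chromosome 16, 19061618 to 19062071, minus strand, mm10) stood at 1231 and 1264 CPM in PD-L1 KO and at 638 and 704 CPM in WT in the 503 cells. The groups did not overlap, and the log2 difference was 0.89 (SE 0.17, edgeR adjusted p = 0.0438). Over all members it stood at 899.7 and 1002 CPM in PD-L1 KO and at 601 and 529 CPM in WT, with a log2 difference of 0.78 (SE 0.17) that did not pass (adjusted p = 1). Over all members its UMIs were in 382 B cells, and the largest contributor held 3.18% of them. The median was 0 Iglc1 UMIs per B cell and the upper quartile 2, against a median of 12.5 in the 66 lambda-called cells. The part of the number of lambda-called cells in the Iglc1 level was not tested. Over 10 Iglc1 UMIs were in 16 and 12 B cells of the PD-L1 KO libraries, 7.51% and 10.6%, and in 12 and 13 of the WT libraries, 5.24% and 6.16%. Iglc2 stood at 1286 and 1490 CPM in PD-L1 KO and at 996 and 885 CPM in WT in the 503 cells, a log2 difference of 0.56 (SE 0.17) that did not pass (edgeR adjusted p = 0.927). With no limit on Lyz2 and C1q, the log2 difference of Iglc1 was 0.23. T cells held 3.15 CPM of Iglc1 at most.

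**Figure D4:**
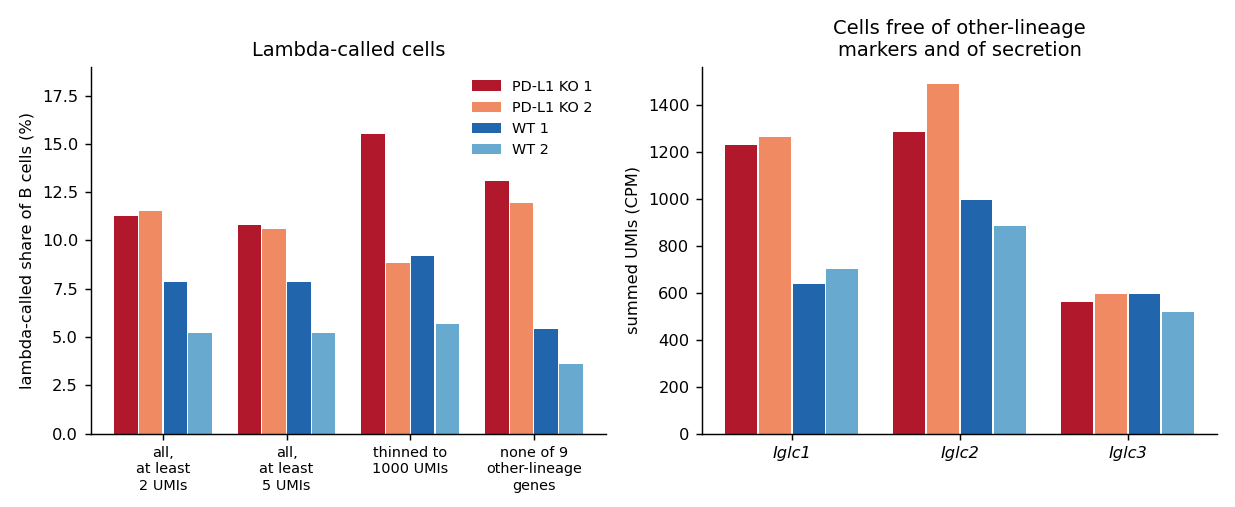
Left, share of B cells led by lambda light chains (%, vertical axis) in each library under 4 ways of counting. Right, level of the lambda constant genes (CPM) summed over 503 B cells free of other-lineage markers and without secreting barcodes. Iglc1 stands at 1231 and 1264 CPM in PD-L1 KO and at 638 and 704 CPM in WT, and the thinned shares overlap between groups.

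Other B cell genes were followed by list, and no member of any list passed over all members. Of the genes of B cell receptor signalling, 23 of 23 could be tested and the median log2 difference was 0.02, beside -0.0025 over all genes tested. Both PD-L1 KO libraries were above both WT libraries for 4 of them and below for 4, beside 13.5% and 18.2% over all genes. In the 503 cells the median was -0.08 over 21, with 2 above and 7 below, beside 15.6% and 15.5% over all genes. The kinases Lyn, Syk and Btk had log2 differences of -0.07, 0.02 and 0.06. Inhibitory receptors and phosphatases had a median of 0.04 over 10 tested of 13, with Cd22, a sialic acid-binding brake on the receptor, at 0.07 and Cd72 at 0.23. Pdcd1, the gene of PD-1, had 0 and 1 UMIs in the B cells of PD-L1 KO libraries and 0 and 1 in those of WT libraries, at or under the limit of detection. Cd274, the gene of PD-L1 in the host B cells, stood at 28.7 and 19.6 CPM in PD-L1 KO and at 21.6 and 12.1 CPM in WT. A Cd274 UMI was in 7.05% of the B cells and 7.37% of the T cells.

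Lineage transcription factors had a median log2 difference of 0.05 over 19 of 19 tested, with Pax5 at 0.12 and Ebf1 at 0.09. The survival axis of BAFF and TNF receptors had a median of 0.08 over 16 of 17. Tnfrsf13c, the BAFF receptor, stood at 276 and 218 CPM in PD-L1 KO and at 244 and 191 CPM in WT, and the groups overlapped. Genes that load and display peptides on MHC class II had a median of -0.0052 over 12 of 14, with H2-Aa at 3294 and 2691 CPM in PD-L1 KO and at 3072 and 2988 CPM in WT. Those of MHC class I had a median of 0.16 over 18 of 20, with 6 members above in both PD-L1 KO libraries and 1 below, beside 13.5% and 18.2% over all genes. In the 503 cells the median was 0.03 over 17, with 3 above and 2 below, beside 15.6% and 15.5% over all genes. H2-D1, a classical class I heavy chain, stood at 2542 and 2523 CPM in PD-L1 KO and at 2283 and 2279 CPM in WT, with a log2 difference of 0.18 (SE 0.14).

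Homing genes had a median log2 difference of -0.10 over 18 of 19 tested, with 2 members above in both PD-L1 KO libraries and 6 below, where all genes gave 13.5% and 18.2%. Klf2, a transcription factor that keeps lymphocytes quiescent and recirculating, stood at 1516 and 1305 CPM in PD-L1 KO and at 1979 and 2321 CPM in WT. The groups did not overlap and the log2 difference of -0.58 (SE 0.15) fell short of the edgeR threshold (adjusted p = 1). In the 503 cells it stood at 1735 and 1238 CPM in PD-L1 KO and at 1757 and 2368 CPM in WT, with a log2 difference of -0.46. Barcodes with markers of other lineages held 41.1% of Klf2 UMIs, beside 39.5% of all UMIs of the B cells. S1pr1, the receptor that guides lymphocytes out of tissue and a Klf2 target, stood at 202 and 157 CPM in PD-L1 KO and at 219 and 270.1 CPM in WT. The log2 difference of Klf2 was -0.70 in T cells and -0.91 in macrophages of the same libraries.

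Plasma cell genes had a median log2 difference of 0.58 over 8 of 11 tested members and of 0.02 over the 5 tested in the 503 cells. B-1 and memory-type genes had a median of -0.14 over 10 of 15, with 1 member above and 5 below (13.5% and 18.2% over all genes), and of 0.04 over 6 in the 503 cells. Immediate early genes, which respond within minutes to many stimuli, had a median of -0.38 over 13 of 13, with 0 members above in both PD-L1 KO libraries and 7 below, where all genes gave 13.5% and 18.2%. Fosb stood at 150.5 and 157 CPM in PD-L1 KO and at 241 and 239.8 CPM in WT. In T cells the median of that list was -0.38 and in macrophages -0.66, and in the 503 B cells it was -0.17 over 12. Myc, a growth regulator of the activation list, stood at 37.9 and 42.9 CPM in PD-L1 KO and at 10.8 and 27.2 CPM in WT, with a log2 difference of 1.11 (SE 0.40, edgeR adjusted p = 1). Activation genes as a list had a median of -0.09 over 13 of 19, with 3 members above and 3 below (13.5% and 18.2% over all genes).

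The remaining lists stood near the centre of all genes or rested on few members. Median log2 differences were 0.03 over 5 germinal centre and cycling genes, 0.10 over 9 marginal zone and follicular genes, -0.41 over 3 age-associated genes and -0.13 over 5 immature genes. They were -0.02 over 10 Toll-like receptor genes, -0.02 over 6 regulatory B cell genes and -0.15 over 10 heat shock chaperones. Il10, the cytokine that defines regulatory B cells, had 0 and 2 UMIs in PD-L1 KO and 0 and 2 in WT.

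The series title names type I interferon, and the interferon-induced genes of the B cells were set beside those of T cells and of macrophages from the same libraries. Macrophages were 446 barcodes with over 5 Lyz2 and over 2 C1q UMIs and none of Cd79a, Cd79b, Ms4a1 or Cd3. In B cells 56 of the 74 listed genes could be tested, and 0 passed in either direction. Their median log2 difference was 0.02, with 29 above 0. Of the 56, 2 were above in both PD-L1 KO libraries and 8 below in both, no larger a share than the 13.5% and 18.2% over all genes. Over the same 56 genes the median was 0.47 in T cells, with 53 above 0, and 0.63 in macrophages, with 51 above 0. No listed gene passed in T cells or macrophages either. Over all genes tested, 49.5% were above 0 in B cells, 50.2% in T cells and 49.6% in macrophages. These 3 classes come from the same 4 libraries and are not independent.

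Summed over the list, B cells held 5619 and 6956 CPM in PD-L1 KO and 6184 and 5995 CPM in WT, and the groups overlapped. T cells held 6080 and 9065 CPM in PD-L1 KO and 5572 and 5517 CPM in WT, while their neutrophil markers summed to 4897 and 10002 CPM in PD-L1 KO and to 9270 and 7306 CPM in WT. Macrophages held 10490 and 9987 CPM in PD-L1 KO and 7175 and 6399 CPM in WT. In the 503 B cells the sum was 4752 and 5190 CPM in PD-L1 KO and 5250 and 4740 CPM in WT, and the median log2 difference was 0.04 over 37 genes. Barcodes with markers of other lineages held 50.3% of the interferon-list UMIs of the B cells, and their part in the sums was not tested apart from the 503 cells. Without PD-L1 KO library 2 the median of the B cells was -0.12. With no limit on Lyz2 and C1q, it was 0.34.

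**Figure D5:**
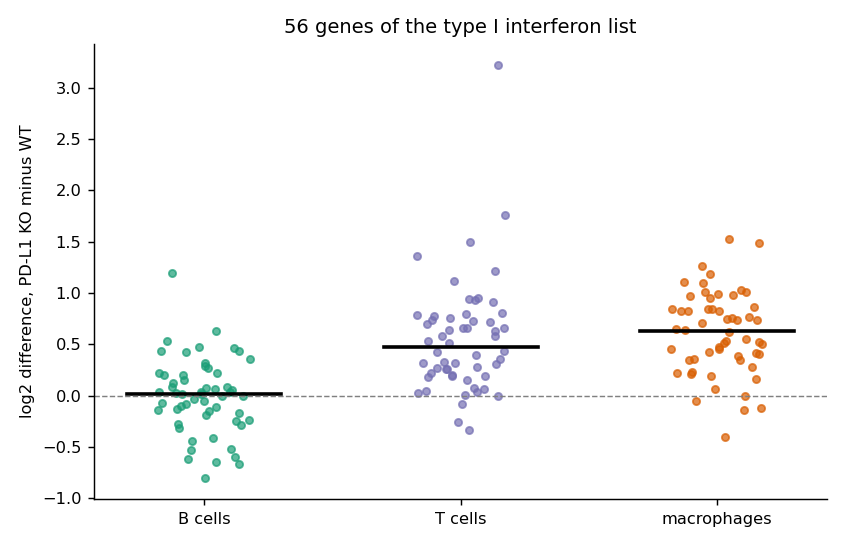
Log2 difference between PD-L1 KO and WT libraries (vertical axis) for each of 56 genes of the type I interferon list, in B cells, T cells and macrophages. Each point is a gene and the bar is the median, which stands at 0.02 in B cells, 0.47 in T cells and 0.63 in macrophages.

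Single interferon genes showed the same spread. Isg15, a ubiquitin-like antiviral modifier, stood at 97.7 and 80.3 CPM in the B cells of PD-L1 KO libraries and at 108 and 119.9 CPM in those of WT libraries. In macrophages it stood at 378 and 317 CPM in PD-L1 KO and at 172 and 174 CPM in WT. Of the Isg15 UMIs of the B cells, 88.9% lay in barcodes with markers of other lineages. Irf7, the factor that amplifies type I interferon, stood at 47.1 and 41.1 CPM in PD-L1 KO and at 44.1 and 45.3 CPM in WT. Ly6e, an interferon-induced surface protein with a UMI in 528 B cells, stood at 486 and 618 CPM in PD-L1 KO and at 461 and 508 CPM in WT. Cxcl10, an interferon-induced chemokine, had UMIs in 10 B cells, and 1 of them held 52.5%.

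Whether the PD-L1 KO against WT difference of B cells differed from that of the other classes was tested for every gene as an interaction. Against T cells, 0 of 9535 genes (0%) passed by edgeR, with 447 at an unadjusted p under 0.05. Against macrophages, 0 of 9417 (0%) passed, with 266 at an unadjusted p under 0.05. The interferon differences are therefore not shown to differ between classes for any single gene. Over the interferon list the median interaction was -0.34 against T cells, where 9 of 64 genes were above 0, beside 0.0066 over all genes, of which 50.7% were above 0. Against macrophages it was -0.66, with 8 of 67 genes above 0, beside 0.0023 over all genes, of which 50.2% were above 0.

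The 10 smallest p against T cells belonged to Slpi, Ccl3, Lpl, Plvap, Flt1, Sesn1, Mmrn2, Cd40, Fscn1 and Tmem2. Sesn1 stood at 35.2 and 25.9 CPM in the T cells of PD-L1 KO libraries and at 35.7 and 54.1 CPM in those of WT libraries, and the interaction was 1.47 (SE 0.29, edgeR adjusted p = 0.886). Cd40, the receptor for T cell help, stood at 80.4 and 73.2 CPM in the B cells of PD-L1 KO libraries and at 64.7 and 65.5 CPM in those of WT libraries. In T cells Cd40 stood at 13.7 and 15.7 CPM in PD-L1 KO and at 1.21 and 2.70 CPM in WT. Plvap, Flt1 and Mmrn2 are endothelial genes. The 10 smallest p against macrophages belonged to Zfp36l1, C1qa, Maf, Trim47, Isg15, S100a4, Tgfbi, Rtp4, Irf7 and Mef2c. Of these, Isg15, Rtp4 and Irf7, are on the interferon list, with interactions of -1.36, -1.64 and -1.53. C1qa was limited by the rule in B cells and required in macrophages, so its interaction says nothing of either.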

How the data were processed

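Raw UMI counts per gene and barcode were deposited by the authors for 4 libraries made with a 3' kit that counts the ends of transcripts. Per the submitters' processing notes, reads were aligned to mm10 with STAR in Cell Ranger 3.1.0; no source used here names the annotation release. Barcodes with at least 200 genes and at most 10% mitochondrial UMIs were kept. No doublet caller was run. UMIs were summed over the B cells of each library and compared with edgeR 4.0.16 in R 4.3.3 (quasi-likelihood test, filterByExpr, TMM, Benjamini-Hochberg adjustment over all genes tested, threshold 0.05), and with DESeq2 1.42.0 as an alternative. Differences between classes were tested as a class by group interaction with the library as a block. Shares were compared with exact permutation tests over libraries. Cells were thinned to 1000 UMIs for shares across depths. The gene test was tested on simulated data. Named genes were every gene past the threshold, the 10 with the smallest p in each direction, the 10 with the smallest p of each interaction, and listed genes by smallest p or as defining genes; others were chosen after their values were seen. The members and lists were chosen with earlier results of these data known. Sequences come from the mm10 genome and GENCODE M21 annotation. Tables were handled with Python 3.11.15, numpy 2.4.6, scipy 1.17.1, pandas 2.3.3 and matplotlib 3.10.9. Some genes that these rules name are not reported here.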

Additional observations from a re-analysis of the deposited data

How the results depend on the processing

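The count of B cell genes past the edgeR threshold, 0 over all members, depended on the fit. It was 44 with no filter on low counts, 23 with the replicate number as a block, 8 with each library thinned to 113 members, 4 with no limit on Lyz2 and C1q, 6 in B cells with no UMI of 9 other-lineage genes and 1 in those without secreting barcodes. Leaving out each library in turn gave 27 (without WT library 2) to 92 (without WT library 1), with 55 without PD-L1 KO library 1 and 41 without PD-L1 KO library 2; the group with 1 library is then assumed to vary like the other. The cause was not tested. The other alternatives, DESeq2's size factors and test among them, gave 0. The labels do not say whether same-numbered libraries were handled together. The deviations of PD-L1 KO 1 and WT 1 from their group means correlated at 0.01 over 8240 genes, which does not decide it. The interaction with T cells gave 82 genes with no filter and 0 to 42 without 1 library, 42 of them without WT library 2. The interaction with macrophages gave 25 with no filter and 0 to 1 without 1 library. The difference in B cell share ran from -3.45 points without PD-L1 KO library 1 to 0.45 without PD-L1 KO library 2. With no limit on Lyz2 and C1q the log2 differences of Ccl6 and Nrgn turned to 0.40 and 0.27. With Lyz2 and C1q at 0, those of Pf4 and Nrgn turned to 0.56 and 0.34, and without endothelial-marker barcodes that of Nrgn was 0.89. In the 503 stricter B cells the interactions of Slpi and Flt1 with T cells turned to -1.27 and 0.15, and that of Tgfbi with macrophages to 0.66. The sets without endothelial-marker, secreting or other-lineage barcodes were chosen after seeing the data. With 113 B cells in its smallest library, the data limit what low genes can show.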
